A study of Mus musculus with 85 samples.

Results

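The nuclear genes for the subunits of oxidative phosphorylation were followed across the cell types, mouse strains and treatments of the series. Members were all gene symbols of the expression table that begin with Nduf and a subunit letter and number, with Uqcr, with Cox4 to Cox8 or with Atp5, and Sdha, Sdhb, Sdhc and Sdhd, with names ending in -ps left out. This rule used names and no measured value, and it took 83 of the 23608 genes of the table. By complex, 37 of them belong to complex I, 4 to complex II, 8 to complex III, 18 to complex IV and 16 to the ATP synthase (complex V).

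RNA-seq had been run on 85 libraries in 30 groups. The mice were males of 8 to 12 weeks. They belonged to 3 inbred strains, A/J, BALB/cJ and (the reference strain) C57BL/6J, or to CB6F1/J, the F1 cross of the latter pair. Untreated Kupffer cells (resident liver macrophages) came from 2 mice of each parental strain and 4 CB6F1/J mice, liver sinusoidal endothelial cells (LSECs) from 4 of each parental strain, hepatic stellate cells from 4, 4 and 3, and hepatocytes from 2, 2 and 3 (A/J first, then BALB/cJ, then C57BL/6J). Kupffer cells had also been taken 2 h after an intraperitoneal injection of LPS, a bacterial cell wall lipid, at 0.1 mg/kg after an overnight fast (2 BALB/cJ, 2 C57BL/6J and 5 CB6F1/J; their controls were fasted and not injected). A further set came from mice on the AMLN diet, which is rich in fat, fructose and cholesterol, for up to 30 weeks (4 A/J, 3 BALB/cJ and 4 C57BL/6J). For this diet no control-diet library is named in the labels, so untreated Kupffer cells were the reference, and diet cannot be told apart from age or fasting. By the study's methods the C57BL/6 animals for the diet work were of a stock bred in the laboratory whereas the other mice of these strains were bought, so in C57BL/6J diet cannot be told apart from stock either. NSG libraries (3 each of BALB/cJ, C57BL/6J and CB6F1/J) held donor-derived Kupffer cells, collected 4 months after lineage-negative marrow had been given to immune-deficient NSG mice conditioned with busulfan, so these cells differ from the untreated ones in origin, host and conditioning at once. Bone marrow-derived macrophages (BMDMs, 2 of each of the 4 strains and each condition) were macrophages grown from marrow in culture and given PBS or Kdo2-lipid A (KLA), a defined TLR4 ligand, at 100 ng/ml for 2 h. The labels do not say that libraries of a group came from separate cultures in every case, so each p-value sets a difference against the spread among libraries.

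Oxidative phosphorylation is the pathway of the inner mitochondrial membrane that turns electrons from NADH and succinate into a proton gradient and then into ATP. Complexes I and II take in the electrons, complexes III and IV pass them to oxygen, and complex V makes ATP as protons flow back. Most subunits are encoded in the nucleus and are joined in the organelle by a small set encoded in mitochondrial DNA, which the table does not list. In macrophages, stimulation of TLR4 is known for shifting energy supply towards glycolysis. Several subunits exist as isoforms whose use differs between tissues, among them COX4, COX6, COX7 and COX8 of complex IV and the 3 genes for subunit c of the ATP synthase.

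The depth was 5254797 to 42779015 reads in 69 libraries of the parental strains and 50141478 to 125294359 reads in 13 CB6F1/J libraries. Summed levels of 7 Kupffer markers were 8498 to 20620 TPM (a read level scaled for transcript length and library depth) in Kupffer libraries, 7 LSEC markers 8413 to 11480 in LSECs, 8 stellate markers 16120 to 34610 in stellate cells and 8 hepatocyte markers 82020 to 134900 in hepatocytes, so each labelled cell type carried its own markers. Some libraries stood apart in the markers of other cells. Stellate libraries held 176.5 to 6226 TPM of Kupffer markers, highest in A/J, and 1627 to 4655 TPM of LSEC markers. Hepatocyte markers reached 8031 TPM in the LSEC libraries, and the 3 Kupffer libraries of BALB/cJ mice on AMLN diet held 1231 to 2137 TPM of hepatocyte markers against 109 to 242 in BALB/cJ controls. In bulk libraries, fewer cells of a type and less RNA per cell cannot be told apart.

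Promoter sequences are shown for the 3 genes of ATP synthase subunit c and for Ndufa12, because strain differences in Atp5g1, Atp5g2 and Ndufa12 are described later, with Atp5g3 as the third gene for subunit c. The sequences are the 250 bases before a RefSeq transcription start of each gene (build GRCm38.p6, the C57BL/6J reference, so they carry no strain difference). They are written 5′ to 3′ on the gene's strand in lower case, and capitals mark a match to the NRF1 motif (GCGCA, any base, then GCGC) or to the ERR motif TCAAGGTCA on either strand. Atp5g1 lies at chr11:96075632-96075881 (minus strand), Atp5g2 at chr15:102671048-102671297 (minus), Atp5g3 at chr2:73911327-73911576 (minus) and Ndufa12 at chr10:94198785-94199034 (plus). The Atp5g3 stretch lies within the gene's span (chr2:73908447-73912464), and the Atp5g1 stretch overlaps its gene (chr11:96072793-96075694). For these genes the start used is thus an inner one and not the outer end of the gene.
Atp5g1: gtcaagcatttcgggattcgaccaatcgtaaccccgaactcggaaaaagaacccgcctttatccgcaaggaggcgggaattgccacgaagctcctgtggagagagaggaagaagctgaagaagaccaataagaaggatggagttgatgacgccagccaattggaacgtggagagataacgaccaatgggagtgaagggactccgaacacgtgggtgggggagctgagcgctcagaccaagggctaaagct
Atp5g2: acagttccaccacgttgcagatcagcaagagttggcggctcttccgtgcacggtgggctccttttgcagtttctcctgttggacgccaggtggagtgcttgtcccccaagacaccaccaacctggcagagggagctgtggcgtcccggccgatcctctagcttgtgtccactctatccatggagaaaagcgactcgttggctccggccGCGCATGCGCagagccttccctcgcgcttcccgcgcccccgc
Atp5g3: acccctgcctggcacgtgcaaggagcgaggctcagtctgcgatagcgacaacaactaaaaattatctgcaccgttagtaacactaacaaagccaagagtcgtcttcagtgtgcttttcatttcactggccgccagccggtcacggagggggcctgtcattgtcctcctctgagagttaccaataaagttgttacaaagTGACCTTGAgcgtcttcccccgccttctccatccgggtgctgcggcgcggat
Ndufa12: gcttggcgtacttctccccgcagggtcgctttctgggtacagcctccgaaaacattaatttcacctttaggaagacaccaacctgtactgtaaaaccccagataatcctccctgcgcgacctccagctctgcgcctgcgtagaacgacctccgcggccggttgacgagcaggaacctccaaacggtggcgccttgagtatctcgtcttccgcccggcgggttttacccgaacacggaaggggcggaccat
Neither the Atp5g1 nor the Ndufa12 stretch held a match. The Atp5g2 stretch held an NRF1 match and the Atp5g3 stretch an ERR match. Over the wider window from 250 bases before to 50 bases after the start, 68 of the 83 subunits had a RefSeq entry. A subunit counted where any of its promoters matched (73 promoters for 68 subunits). The share of all promoters was counted per promoter, so the units of the shares differ. NRF1, a factor known for nuclear genes of the respiratory chain, had its letters in 17 of 68 (25%) against 4.6% of all 32851 promoters. The ETS motif CCGGAAG was in 16 (23.5%) against 8.86%, the YY1 motif AAGATGGCG in 7 (10.3%) against 1.4%, and the ERR motif in 2 (2.94%) against 0.423%, counted on both strands. A match describes letters in the reference and is no evidence of binding.

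Summed over all members, the subunits held 0.573% to 2.34% of all TPM in the group means. The share was 1.75 ± 0.044% (SD, n = 2) in A/J, 2.34 ± 0.016% (n = 2) in BALB/cJ and 1.85 ± 0.061% (n = 3) in C57BL/6J hepatocytes. BMDMs in PBS held 1.24% to 1.56% in the 4 strains. Untreated Kupffer cells held 0.717 ± 0.11% (A/J), 0.866 ± 0.028% (BALB/cJ), 0.732 ± 0.029% (C57BL/6J, n = 2 each) and 0.943 ± 0.012% (CB6F1/J, n = 4). LSECs held 0.932% (A/J), 0.918% (BALB/cJ) and 0.806% (C57BL/6J), and stellate cells 0.855%, 0.828% and 0.573%. Hepatocytes and BMDMs thus lay above the 3 non-hepatocyte liver cell types in every untreated library.

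**Figure D1:**
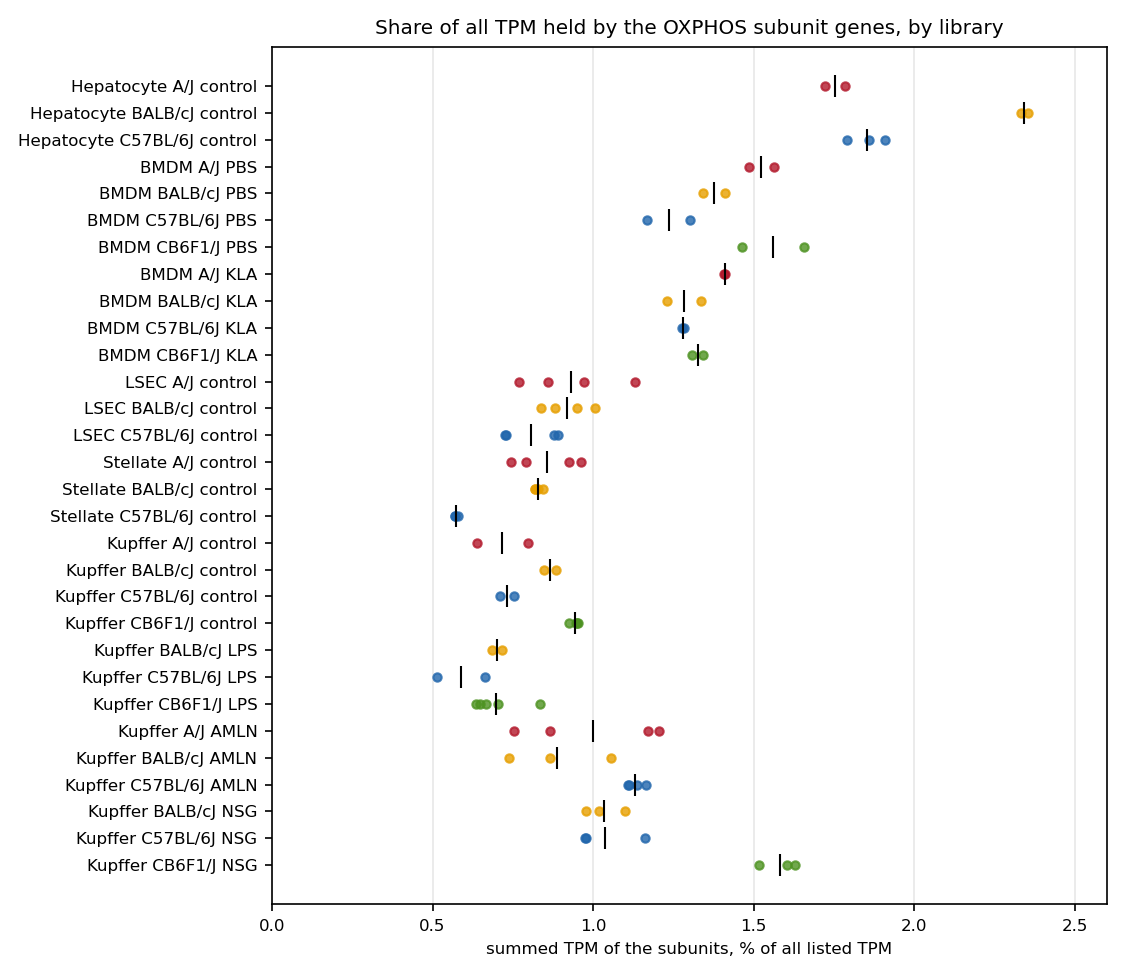
Share of all TPM held by the 83 subunit genes (horizontal axis, %), one point per library and a bar at the group mean, coloured by strain. Hepatocyte libraries lay highest (1.723% to 2.354%), the C57BL/6J stellate libraries lay between 0.57% and 0.579%, and the 4 C57BL/6J libraries on AMLN diet lay between 1.11% and 1.17% against 0.711% and 0.753% in their controls.

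The highest subunit of each complex was noted in each cell type. Atp5b, the catalytic beta subunit of the ATP synthase, was the highest of complex V in all 5 cell types, with a mean over untreated parental libraries of 249.6 ± 23.9 TPM (n = 6) in Kupffer cells, 246.9 in LSECs, 221.6 in stellate cells, 821.5 ± 90.5 (n = 7) in hepatocytes and 492.5 in BMDMs. Ndufa4, listed here with complex I by its name although it is now assigned to complex IV, led its group in all 5 types, from 95.6 TPM in Kupffer cells to 547.9 TPM in hepatocytes. Sdhc, a membrane anchor of complex II, led complex II in Kupffer cells (95.6 TPM), stellate cells (84.1) and BMDMs (191.2), whereas the iron-sulfur subunit gene Sdhb led in hepatocytes (216 TPM) and the flavoprotein gene Sdha in LSECs (89.6). Uqcrc1, a core subunit of complex III, was highest in Kupffer cells (73.2 TPM), LSECs, stellate cells and BMDMs, and Uqcr11, a small subunit, in hepatocytes (262.5). In complex IV, Cox6a1 led in LSECs (287.7 TPM), stellate cells (204), hepatocytes (441.5) and BMDMs (365), and Cox5a in Kupffer cells (234 ± 37.3). The median over the 83 members was 35.2 TPM in Kupffer cells, 44.0 in LSECs, 38.9 in stellate cells, 107 in hepatocytes and 67.9 in BMDMs. Between 67 and 71 members exceeded 8 TPM in each type. In all, 78 members passed the filter on low values in at least one comparison, and Atp5l, Cox6a2, Cox7b2, Cox8b and Cox8c never did.

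Read counts were compared next with edgeR, scaled by TMM so that the median of all genes stayed within 0.04 of 0 on the log2 scale. A gene passes where its Benjamini-Hochberg adjusted p over all genes tested is under 0.05, and each comparison is described by the median log2 difference of the subunits tested. Kupffer cells were lower than hepatocytes in 70 of 74 subunits and higher in none, with a median of -2.51. Among all genes tested, 43.2% were higher and 43.2% lower. The lower ones were 35 of 36 in complex I, 4 of 4 in complex II, 8 of 8 in complex III, 10 of 12 in complex IV and 13 of 14 in complex V. The largest difference that passed was in Uqcrq, a small subunit of complex III, which stood at 14.3 to 25.1 TPM in Kupffer cells and 172.5 to 228 TPM in hepatocytes, with no overlap (log2 difference -4.57 ± 0.16 (SE), adjusted p = 4.4e-12). Uqcr11 (-4.41), Atp5k, subunit e of the ATP synthase (-4.19), and Cox5b (-3.88) followed. On the log2 TPM scale, where all genes were 1.04 higher in Kupffer cells, the median of the subunits was -1.35.

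Kupffer cells were also lower than BMDMs, in 56 of 72 subunits, with 2 higher and a median of -0.75 (38.1% of all genes higher, 38.9% lower). The BMDM values were estimated counts and the Kupffer values plain read counts. Cell type therefore cannot be told apart from the way of counting in this comparison. Cox5b (-1.98), Uqcrb (-1.90), Atp5g1 (-1.73) and Uqcrq (-1.66) were lowest relative to BMDMs. Cox5a, the subunit that led complex IV in Kupffer cells, and Sdhd, the second membrane anchor of complex II, were the 2 that were higher in Kupffer cells (0.82 and 0.42). On the TPM scale the median was -0.96, beside -0.21 for all genes.

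Against the other 2 liver cell types the medians were nearer to 0. Against LSECs, 20 of 72 subunits were higher and 11 lower in Kupffer cells (40.9% and 39.5% of all genes), with a median of 0.04 that turned to -0.25 on the log2 TPM scale, where all genes stood at -0.29. Against stellate cells, 22 of 74 were higher and 8 lower, with a median of 0.15 (38.2% and 40.9%), or 0.0092 on the TPM scale. The Kupffer markers in the stellate libraries, at 2063 to 6226 TPM in A/J, stood beside 14080 and 14870 TPM in A/J Kupffer cells, and their part in this comparison was not tested. This comparison depended on Kupffer A/J control replicate 2: without it 47 passed and the median was 0.27, and without Kupffer C57BL/6J control replicate 2 the median was 0.09. On TMM-scaled counts, complex II was the one complex with every tested gene higher in Kupffer cells, 4 of 4 in both comparisons, with medians of 0.79 and 0.64. By mean TPM, Sdha was not higher in Kupffer cells than in LSECs, where it read 89.6 TPM. Sdhd stood at 84.2 to 100.4 TPM in Kupffer cells and 40.8 to 66.5 TPM in LSECs (log2 difference 1.29 ± 0.09, adjusted p = 4.5e-10). Sdhb was higher by 1.11 against LSECs and 0.95 against stellate cells. The libraries of the cell types did not overlap for Sdhd in the LSEC comparison.

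Of the subunits that passed, Cox5a had the largest difference against LSECs. In Kupffer cells it read 213.4 and 169.5 TPM for A/J, 235 and 265.7 for BALB/cJ, and 255 and 264 for C57BL/6J mice, against 43.7 to 71.1 TPM in LSECs, 45.7 to 101.8 in stellate cells, 138 to 168.7 in PBS BMDMs and 160 to 230 in hepatocytes. Every Kupffer library lay above every LSEC and stellate library, and the differences were 2.38 ± 0.11 (adjusted p = 1.2e-12) and 2.13 ± 0.15 (adjusted p = 1.9e-09). In the other direction, Atp5j, coupling factor 6 of the ATP synthase, was lower in Kupffer cells than in LSECs by -1.16 (19.9 to 43.3 against 72.9 to 153 TPM). Ndufb11 (-0.77), Ndufa5 (-0.65) and Cox6a1 (-0.46) were also lower against LSECs. Without the 3 LSEC libraries that held over 6000 TPM of hepatocyte markers, 30 of 72 subunits passed (79.2% of all genes) and the median stayed at 0.04.

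Some isoforms were largely found in stellate cells. Ndufa4l2, a paralog of Ndufa4 known as a hypoxia-induced gene, read 39.7, 40.8, 28.8 and 46.8 TPM in stellate cells of A/J, 31.7, 32.8, 38.0 and 41.8 in those of BALB/cJ, 10.1, 11.1 and 17.2 in those of C57BL/6J, and at most 3.39 TPM in any library of another cell type. Kupffer cells were lower by -5.80 ± 0.32 (adjusted p = 5.6e-11). Cox4i2, the COX4 isoform known from lung and low oxygen, read 6.90 to 15.0 TPM in stellate cells of A/J, 1.92 to 4.86 in those of BALB/cJ, 0.463 to 2.10 in those of C57BL/6J, and at most 1.72 elsewhere. As a share of both isoforms, Ndufa4l2 made up 26.5 ± 4.6% (A/J, n = 4), 23.0 ± 1.9% (BALB/cJ, n = 4) and 15.2 ± 5.0% (C57BL/6J, n = 3), and Cox4i2 6.25 ± 1.4%, 2.50 ± 1.1% and 1.52 ± 1.1%. The muscle isoform gene Cox6a2, the testis genes Cox7b2 and Cox8c, and Cox8b were never tested.

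Between strains, the largest shift of the whole set was in stellate cells, where C57BL/6J was lower than both other strains. A/J exceeded C57BL/6J in 49 of 72 subunits, with 1 lower and a median of 0.77 (17.9% of all genes higher, 18% lower). BALB/cJ exceeded C57BL/6J in 54 of 71, with 1 lower and a median of 0.71 (24.4% and 23.6%). A/J and BALB/cJ differed in 5 higher and 1 lower of 74, with a median of 0.06 (17.9% and 15.5%), and in 12 without A/J replicate 4. Leaving out any single stellate library kept the 2 comparisons with C57BL/6J between 39 and 55 passing subunits and their medians between 0.67 and 0.87. By complex, BALB/cJ was higher in 28 of 36 subunits of complex I (median 0.76), 3 of 4 of complex II, 4 of 8 of complex III, 9 of 11 of complex IV (0.83) and 10 of 12 of complex V (0.69).

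Single subunits showed this without overlap. Ndufs5, an accessory subunit of complex I, read 11.3, 13.8, 9.21 and 10.2 TPM in BALB/cJ and 3.85, 3.64 and 3.302 TPM in C57BL/6J stellate cells (1.66). Ndufa1, another accessory subunit, read 20.6 to 30.4 TPM in BALB/cJ, 14.3 to 30.9 in A/J and 7.34, 11.3 and 8.06 in C57BL/6J (1.57 for BALB/cJ). Ndufa4l2 was lower in C57BL/6J by 1.53 against BALB/cJ and 1.63 against A/J, and Cox4i2 by 3.13 ± 0.46 against A/J. Sdha went the other way, with 90.7 to 99.4 TPM in C57BL/6J, 74.9 to 79.7 in BALB/cJ and 73.9 to 79.6 in A/J. The Sdha difference from C57BL/6J was -0.26 ± 0.06 (adjusted p = 0.0082) for BALB/cJ and -0.29 for A/J, the latter a call that was lost without C57BL/6J replicate 1 or 2.

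These differences moved with transcript length. Subunit transcripts are short, with a median of 744 nt against 2641 nt for the genes tested, and 45 to 51 of the subunits fell in the shortest length decile of all genes. In that decile the median difference of all genes from C57BL/6J stellate cells was 0.51 for A/J and 0.37 for BALB/cJ. With an offset for each library and length decile, 33 subunits passed as higher in A/J and 2 as higher in C57BL/6J (median 0.36), and 41 as higher in BALB/cJ and 3 as higher in C57BL/6J (0.39). Of all genes, 13.5% and 15.4% passed in these directions against A/J, and 22% and 22.5% against BALB/cJ. Markers moved too. In stellate libraries the Kupffer marker sum was 2063 to 6226 TPM for A/J, 176.5 to 731.5 for BALB/cJ and 1232 to 1691 for C57BL/6J, and the LSEC sum 2433 to 4655, 1627 to 3155 and 2663 to 4142. The part of length and of these cells in the differences was not tested.

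**Figure D2:**
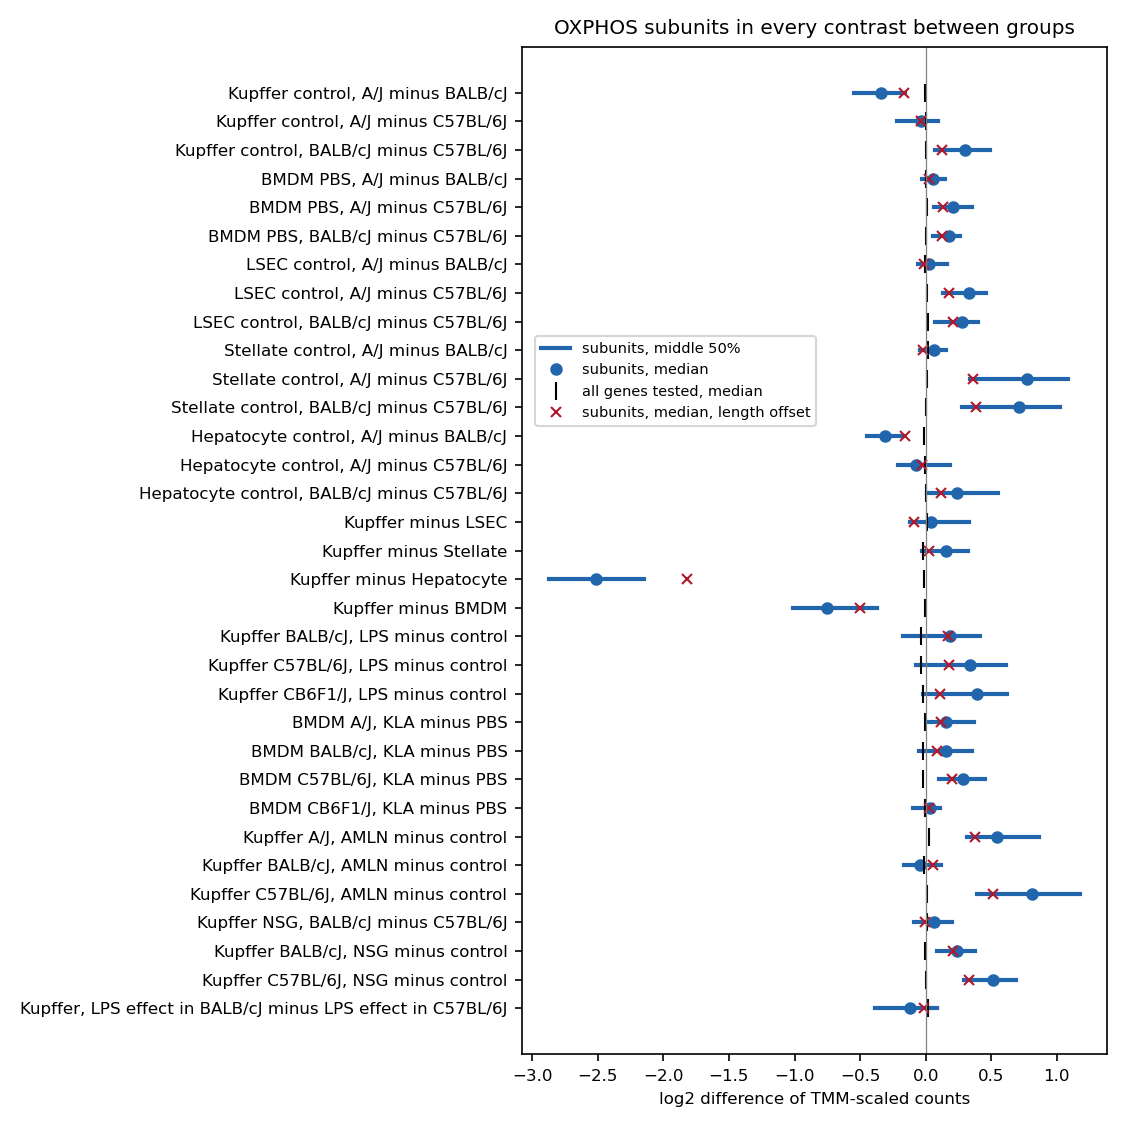
Median log2 difference of the subunits tested in each comparison (blue point, bar for the middle 50% of subunits), the median of all genes tested (black tick) and the subunit median with an offset for transcript length (red cross). The medians run from -2.51 (Kupffer minus hepatocyte) to 0.81 (C57BL/6J, AMLN minus control), and the length offset brought the stellate values of 0.77 and 0.71 to 0.36 and 0.39.

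The same strain comparison was smaller in the other cell types. In LSECs BALB/cJ was higher than C57BL/6J in 12 of 70 subunits and lower in 2, with a median of 0.27 (10.8% and 11.4% of all genes), and A/J was higher in 8 of 71 and lower in 2, with a median of 0.33 (10.4% and 10.5%). The BALB/cJ count was 6 to 8 without BALB/cJ replicate 2 or 4 or C57BL/6J replicate 3 or 4. The A/J count was 24 without A/J replicate 4 and 5 or 6 without A/J replicate 1 or 3 or C57BL/6J replicate 1, 3 or 4, and its median was 0.15 without A/J replicate 3. Without the LSEC libraries of high hepatocyte marker sums the counts were 12 of 70 and 6 of 71 (23.8% and 13.2% of all genes, either direction). A/J and BALB/cJ LSECs differed in 2 higher and 1 lower of 72 (median 0.02, with 6.64% and 5.96%). Kupffer cells of BALB/cJ were higher in 19 of 70 subunits and lower in 0, at a median of 0.30 (14% and 15.1%), but 4 passed without C57BL/6J replicate 1, 6 without BALB/cJ replicate 2 and 12 without C57BL/6J replicate 2. Hepatocytes gave 16 of 71 higher and 1 lower, with a median of 0.24 (9.53% and 11.1%), and 3 passed without either BALB/cJ library or without C57BL/6J replicate 2, and 28 without C57BL/6J replicate 3. BMDMs gave 10 of 70 higher and 1 lower, with a median of 0.18 (16% and 17.3%), and 4 passed without C57BL/6J replicate 1 (median 0.09) and 18 without C57BL/6J replicate 2. For A/J against C57BL/6J, BMDMs gave 29 of 71 higher and 1 lower (median 0.21, with 24.6% and 26.6% of all genes), and 17 passed without A/J replicate 2. A/J and BALB/cJ BMDMs differed in 9 higher and 3 lower of 71 (median 0.06, with 22.9% and 22.3%), with 4 or 5 passing without either A/J library and 19 without BALB/cJ replicate 2.

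The difference of the strain difference was tested directly. BALB/cJ minus C57BL/6J was larger in stellate cells than in LSECs in 7 of 71 subunits and smaller in none, with a median of 0.43 (5.93% of all genes larger, 12.5% passing in either direction). Ndufa13, a complex I subunit, was among the 7. It read 26.7, 26.0, 27.4 and 30.1 TPM in BALB/cJ and 9.86, 11.1 and 10.2 in C57BL/6J stellate cells, against 16.5 to 23.5 and 12.4 to 17.5 TPM in LSECs (difference of differences 1.10, adjusted p = 0.0063). Further examples were Atp5e (1.14), Ndufa6 (0.91), Atp5j (0.76), Atp5o (0.63) and Atp5d (0.49). Against Kupffer cells, 12 of 71 were larger in stellate cells and 1, Sdha (-0.31), was smaller (6.57% of all genes larger, 15% passing in either direction). Atp5j stood at 0.78 (adjusted p = 0.0088) and Ndufa5 at 1.06.

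Other strain comparisons gave few or unstable calls. A/J and BALB/cJ Kupffer cells differed in 2 higher and 1 lower of 72 (median -0.34, with 5.03% and 3.67% of all genes). Without A/J replicate 1, which held 797 TPM of erythroid and platelet markers against 229 in the other A/J library, 28 passed and the median was -0.63. Without A/J replicate 2 the median was -0.10. In hepatocytes A/J was lower than BALB/cJ in 12 of 72 and higher in 2 (median -0.31, with 5.98% and 7.79%), and 3 passed without either BALB/cJ library. A/J and C57BL/6J differed in 3 of 69 subunits in Kupffer cells (6.22% of all genes higher, 5.39% lower) and in 3 of 72 in hepatocytes (1.91% and 1.73%), all higher in A/J. Those 2 counts ranged from 1 to 7 and from 1 to 4 when single libraries were left out. The lowest came without C57BL/6J replicate 1 and without A/J replicate 1, and the Kupffer count was 7 without A/J replicate 1 and 6 without A/J replicate 2.

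A few genes differed between strains in every cell type. Subunit c, the ring of the ATP synthase that turns with the proton flow, is encoded by Atp5g1, Atp5g2 and Atp5g3, whose mature proteins are the same. Their mRNAs and processed copies in the genome share sequence, so the split of reads among them is uncertain. Atp5g1 (chr11:96072793-96075694, GRCm38) read 17.6 and 10.6 TPM in Kupffer cells of A/J, 0 and 0.636 in those of BALB/cJ, and 3.70 and 5.61 in those of C57BL/6J. In LSECs it read 17.0, 14.0, 15.9 and 10.3 in A/J, at most 0.194 in BALB/cJ and 3.81 to 6.68 in C57BL/6J. Stellate cells had 12.0 to 16.2, at most 0.626 and 1.67 to 4.36, hepatocytes 40.1 and 36.9, 2.80 and 0.214, and 3.74 to 10.3, and PBS BMDMs 44.1 and 48.1, 1.13 and 0.905, and 23.9 and 21.97. In each of the 5 cell types, A/J libraries lay above C57BL/6J libraries and C57BL/6J above BALB/cJ libraries, with no overlap.

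Atp5g2 (chr15:102662868-102671047) was the A/J form of this pattern. It read 23.4 and 17.4 TPM in A/J Kupffer cells, 0.965 and 0.198 in BALB/cJ and 0 in both C57BL/6J libraries, a level at least 61.2-fold higher in A/J than C57BL/6J when 3 reads over the group are taken as the floor. A/J stood at 17.5 to 29.8 TPM in LSECs, 22.9 to 27.8 in stellate cells, 18.9 and 19.1 in hepatocytes and 34.1 and 36.0 in PBS BMDMs, and no BALB/cJ or C57BL/6J library of those types exceeded 2.14 TPM. Atp5g3 (chr2:73908447-73912464) carried most of the subunit c reads in all strains. Its share of the summed TPM of the 3 genes was 73.3% in Kupffer cells of A/J, 99.2% in those of BALB/cJ, 95.6% in those of C57BL/6J, and 66.2% to 99.7% over all groups. Atp5g3 itself overlapped between strains in Kupffer cells, with 103 and 84.3 TPM (A/J), 108 and 128 (BALB/cJ), and 103 and 97.8 (C57BL/6J).

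Ndufa12 (chr10:94199035-94221440), an accessory subunit of complex I, was low in C57BL/6J. For A/J, then BALB/cJ, then C57BL/6J, it read 20.0 and 26.4, 32.1 and 33.4, and 7.97 and 8.34 TPM in Kupffer cells, 32.9 to 50.1, 38.1 to 46.5 and 12.6 to 19.1 in LSECs, and 31.5 to 37.5, 31.6 to 43.7 and 10.2 to 19.2 in stellate cells. Hepatocytes read 109 and 85.6, 109.6 and 90.0, and 15.9 to 28.8, and PBS BMDMs 81.6 and 95.4, 66.7 and 91.6, and 20.4 and 24.5. C57BL/6J lay below both other strains without overlap in all 5 types. BALB/cJ exceeded C57BL/6J by 2.01 in Kupffer cells, 1.92 in hepatocytes and 1.81 in BMDMs on the log2 scale, and by 1.46 ± 0.23 in stellate cells.

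Cox7c (chr13:86044798-86046795), a small subunit of complex IV with processed copies that make its reads uncertain, was high in BALB/cJ non-parenchymal cells. It read 12.98 and 9.72 TPM in BALB/cJ against at most 1.39 in A/J and C57BL/6J Kupffer cells, 10.8 to 17.7 against at most 3.32 in LSECs, and 6.97 to 12.7 against at most 3.38 in stellate cells. PBS BMDMs did not share this (5.46 and 7.66 in BALB/cJ, 6.13 and 6.94 in A/J, 5.25 and 5.46 in C57BL/6J), and hepatocytes of BALB/cJ (4.53 and 4.42) lay within the C57BL/6J range of 1.30 to 6.14. Cox6b2 (chr7:4751792-4753094), known as the testis isoform of COX6B, read 25.1 and 34.4 TPM in BALB/cJ hepatocytes against at most 0.673 TPM in the other hepatocyte libraries (log2 difference 6.00 against C57BL/6J).

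**Figure D3:**
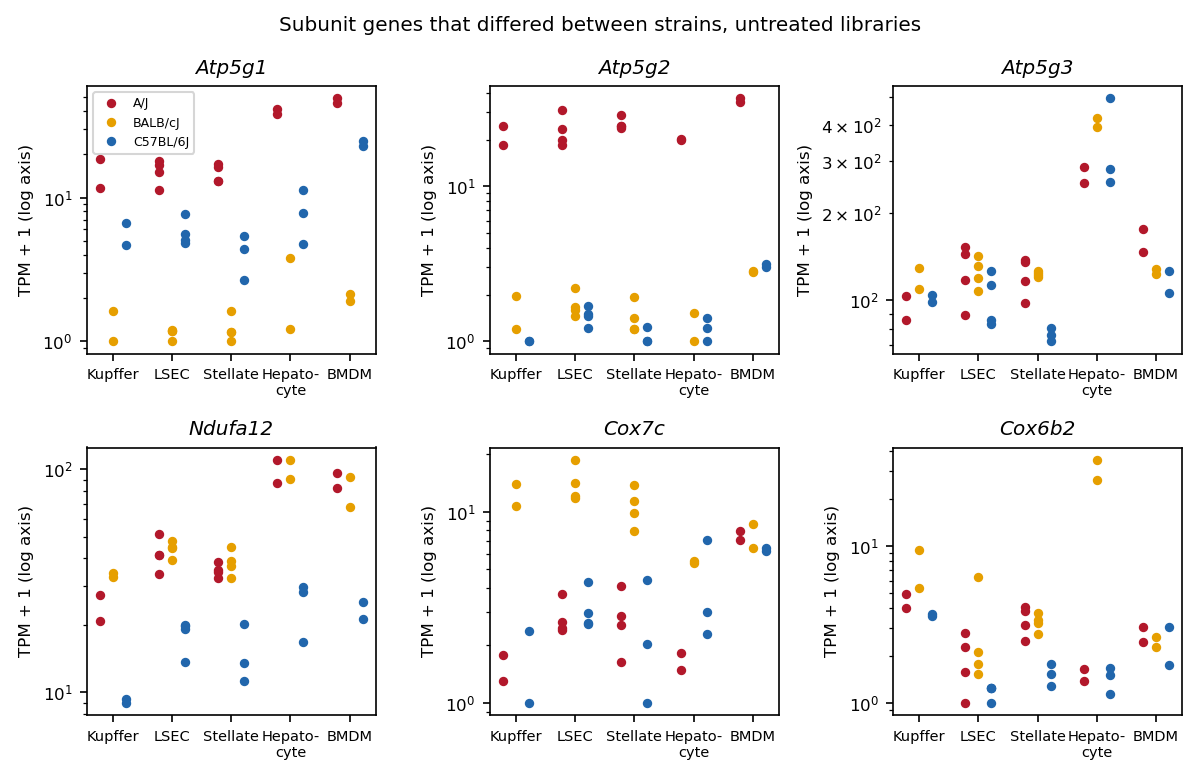
TPM + 1 on a log axis of 6 subunit genes in untreated libraries of 5 cell types, coloured by strain, one point per library. Atp5g1 is ordered A/J, C57BL/6J, BALB/cJ in every cell type, Atp5g2 is high in A/J, Ndufa12 is low in C57BL/6J, Cox7c is high in BALB/cJ Kupffer cells, LSECs and stellate cells, and Cox6b2 in BALB/cJ hepatocytes.

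In CB6F1/J cells both parental alleles share one nucleus, and reads that span strain variants give the allele of origin. Between 27 and 28 subunits could be tested in each of the 5 CB6F1/J groups, with the library as a block. For Atp5g1 the BALB/cJ allele gave 0.909, 2.03, 0.84 and 3.37% of such reads in untreated Kupffer cells (14 against 819 reads, log2 allele difference -5.79 ± 0.22, adjusted p = 0.00014). It gave 0 to 2.86% after LPS (8 against 541 reads), 2.16 and 2.90% in PBS BMDMs (20 against 764) and 2.62 and 2.78% in KLA BMDMs (18 against 647). In the NSG group there were 0 BALB/cJ reads against 629, which allows a share of up to 0.477%, with counting error only in this limit. Atp5g1 passed in the other 4 groups and lay on the side of the parental difference.

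Ndufa12 leaned to the BALB/cJ allele, with 73.9, 73.1, 76.4 and 68.9% in untreated Kupffer cells (2350 against 858 reads, 1.48 ± 0.09). It stood at 65.5 to 74.3% after LPS, 68 to 72.9% in NSG cells, 71.6 and 75.3% in PBS and 69.1 and 70.8% in KLA BMDMs, and it passed in all 5 groups. Cox7c leaned the same way in untreated Kupffer cells (88.8, 69.2, 68.3 and 64.6%, 1.37) and in NSG cells (71.3 to 76.9%, 1.51), where it passed, but stood at 47.6 and 53.3% in KLA BMDMs. For these 3 genes the allele with more reads in untreated Kupffer cells was the one of the strain with the higher level there. In NSG cells this was not seen for Cox7c. Its reads per library in NSG cells of the parental strains were few and overlapped, at 4 to 9 in BALB/cJ and 2 to 12 in C57BL/6J. The cause of this mismatch was not tested.

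In all, 6 subunits were higher from the BALB/cJ allele and 3 from the C57BL/6J allele in untreated Kupffer cells (25.4% of all genes tested passed in either direction), 2 and 2 after LPS (13.3%), 2 and 0 in NSG cells (4.16%), 1 and 1 in PBS BMDMs (12.3%) and 3 and 2 in KLA BMDMs (19.9%). The counts were 3 without untreated replicate 3, 5 without untreated replicate 2, 2 without LPS replicate 5 and 0 without any one NSG library. Ndufc2 had 85.4 to 96.6% BALB/cJ reads in untreated Kupffer cells on few reads, at a mean of 68.5, and Atp5h passed at 0.54. Some members had allele counts closer than independent reads allow, such as Ndufa6 with 5796 and 5793 reads and Uqcrc1 with 7811 and 7835. This held for 5 of 28 subunits and 8.93% of all genes, and such shares near 50% cannot show balance.

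**Figure D4:**
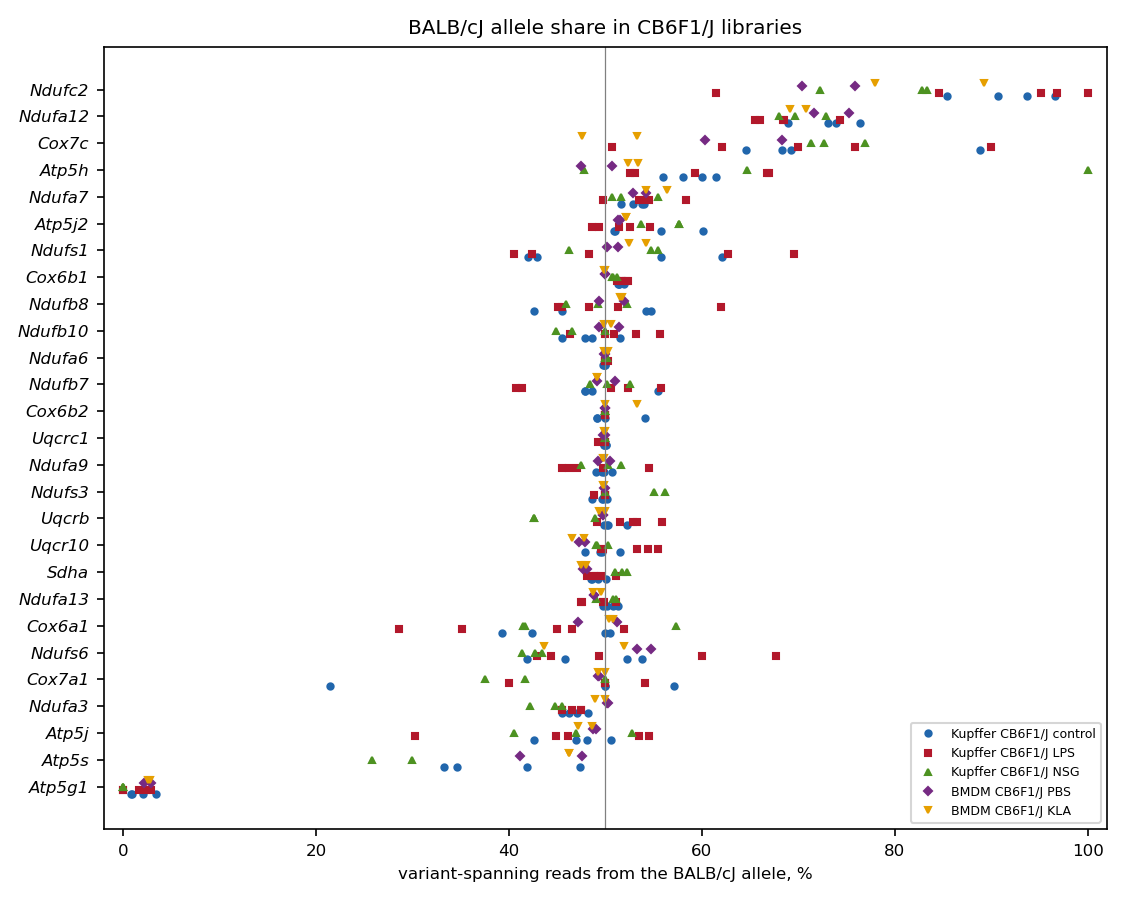
Share of variant-spanning reads from the BALB/cJ allele (%) for 27 subunits in CB6F1/J libraries, one point per library, with symbols for the 5 groups and a line at 50%. Atp5g1 lies at 0% to 3.37%, Ndufa12 at 65.5% to 76.4%, and most other subunits scatter around 50%.

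For the set as a whole, the direction of the LPS response depended on the scale. On TMM-scaled counts the median difference was 0.18 in BALB/cJ, 0.34 in C57BL/6J and 0.39 in CB6F1/J Kupffer cells, but on the log2 TPM scale it was -0.26, -0.21 and -0.37, where all genes stood at -0.47, -0.57 and -0.73. The subunits' share of all TPM went from 0.866% to 0.702% in BALB/cJ, from 0.732% to 0.588% in C57BL/6J and from 0.943% to 0.697% in CB6F1/J. On the TMM scale 13 of 70 subunits were higher and 5 lower in BALB/cJ (29.4% and 29.4% of all genes), 17 of 67 higher and 3 lower in C57BL/6J (28.6% and 30.4%), and 36 of 69 higher and 9 lower in CB6F1/J (39.4% and 41.8%). The BALB/cJ count was 4 without control replicate 1 and 9 without control replicate 2, and the C57BL/6J count was 0 without either control. The C57BL/6J median was 0.22 without control replicate 1, and the CB6F1/J median 0.24 without LPS replicate 5. With the length offset, 26 of 69 subunits were higher and 16 lower in CB6F1/J, with a median of 0.11 (41.3% and 41.1% of all genes).

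In CB6F1/J, which had the most libraries, medians by complex ran from -0.19 to 0.62. Complexes III, IV and V had medians of 0.50, 0.62 and 0.59, with 7 of 8, 9 of 10 and 9 of 12 subunits higher, complex I had 0.28, and complex II -0.19. In BALB/cJ and C57BL/6J complex II stood at -0.02 and -0.24 and complex V at 0.37 and 0.54. These differences between complexes were not tested. All are on the TMM scale.

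Genes that fell on both scales included Ndufv3, an accessory subunit at the NADH-binding tip of complex I. It read 20.4 and 15.8 TPM in BALB/cJ controls and 6.14 and 8.59 after LPS, 19.5 and 19.0 against 6.32 and 5.38 in C57BL/6J, and 21.6 to 24.7 against 5.80 to 7.78 in CB6F1/J. No LPS library overlapped a control (log2 -0.90, -1.16 and -0.99, adjusted p = 8.3e-06 in CB6F1/J). The BALB/cJ call was lost without LPS replicate 1 or control replicate 1, and the C57BL/6J call without either control. Cox7a2l, known for joining complexes III and IV into supercomplexes, fell from 68.3 and 69.2 to 26.5 and 27.7 TPM in BALB/cJ (log2 -0.89) and from 103.5 to 115 down to 28.5 to 55.4 TPM in CB6F1/J (-0.81). It read 67.5 and 84.9 against 35.4 and 26.0 TPM in C57BL/6J (-0.76), a call lost without either control.

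Sdhb fell from 78.0 and 77.4 to 40.8 and 41.6 TPM in BALB/cJ (-0.47, lost without either control), and from 83.9 to 88.8 down to 32.2 to 47.8 TPM in CB6F1/J (-0.50 ± 0.13, adjusted p = 0.0034). In C57BL/6J it read 67.3 and 77.5 against 45.2 and 33.5 TPM and did not pass (-0.33). Sdha passed in CB6F1/J (-0.21), with 68.8 to 73.2 TPM in controls and 35.5 to 38.6 after LPS. The core subunit gene Ndufs3 was lower by -0.60 in CB6F1/J, and Ndufs7 by -0.98 in BALB/cJ and -0.51 in CB6F1/J.

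Among those higher on the TMM scale, Uqcrb, a small subunit of complex III, was higher by 1.13 ± 0.25 in BALB/cJ and 1.00 ± 0.25 in C57BL/6J. It read 45.7 and 33.1 TPM after LPS against 21.7 and 28.6 in BALB/cJ controls, without overlap, and 50.1 and 34.9 against 34.9 and 27.3 in C57BL/6J. The BALB/cJ call was lost without control replicate 1 and the C57BL/6J call without either control. In CB6F1/J, Ndufa1 (1.12), Cox7a2 (1.10) and Atp5k (1.08) were highest. Their TPM moved less, with Cox7a2 at 55.3 to 94.2 after LPS against 53.2 to 58.3 in controls, which overlap. Neutrophil markers summed to 39.1 to 200 TPM in LPS libraries and 1.39 to 7.71 in controls. Erythroid and platelet markers stood at 338 to 483 against 127.5 to 196 TPM in BALB/cJ, 172 to 234 against 71.9 to 101.9 in C57BL/6J and 317 to 747 against 63.4 to 128 in CB6F1/J. Hepatocyte markers stood at 554 to 1392 against 156 to 428 TPM in C57BL/6J and 277 to 505 against 109 to 242 in BALB/cJ, and overlapped in CB6F1/J. The Kupffer marker sum was lower after LPS, at 8498 to 11580 against 12840 to 16170 TPM. Kupffer cells had been sorted as CD45+ with high F4/80 and intermediate CD11b. The part of the markers of other cells in these results was not tested. A test of the LPS effect in BALB/cJ against that in C57BL/6J passed in 0 of 70 subunits by edgeR and 0 by DESeq2, with 4 at an unadjusted p under 0.05 (0.11% of all genes passed, median -0.12).

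In BMDMs, KLA gave medians of 0.15 in A/J, 0.16 in BALB/cJ, 0.28 in C57BL/6J and 0.03 in CB6F1/J on the TMM scale, and -0.12, -0.09, 0.07 and -0.23 on the TPM scale, where all genes stood at -0.27, -0.26, -0.22 and -0.26. The counts were 29 higher and 4 lower of 71 in A/J (32.9% and 33.1% of all genes), 24 and 4 of 69 in BALB/cJ (26.4% and 27.7%), 40 and 3 of 70 in C57BL/6J (33.5% and 34.6%) and 2 and 3 of 70 in CB6F1/J (23.9% and 23.7%). The BALB/cJ count was 16 without PBS replicate 1 (median 0.09). The CB6F1/J count was 0 without KLA replicate 1 or PBS replicate 2 and 11 without PBS replicate 1. Atp5g3 and Uqcrb moved the same way in all 3 parental strains on both scales.

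Atp5g3, the main subunit c gene, rose from 145 and 175 to 234.5 and 224 TPM in A/J (0.78), from 122 and 127 to 187.5 and 220.8 in BALB/cJ (0.96) and from 105 and 125 to 229 and 222 in C57BL/6J (1.18). Uqcrb fell from 120.6 and 112 to 62.6 and 62.9 TPM in A/J (-0.62), from 118 and 93.0 to 55.5 and 55.4 in BALB/cJ (-0.68) and from 86.0 and 92.0 to 49.8 and 60.5 in C57BL/6J (-0.48). The groups did not overlap in any of the 3 strains for either gene. Uqcrb thus had the opposite sign in KLA-treated BMDMs and in LPS-treated Kupffer cells, which were not compared in one test. Atp5e, the epsilon subunit, was higher by 0.76, 0.95 and 1.43 in the same order, and Ndufv3 lower by -0.40, -0.50 and -0.37. In CB6F1/J, Atp5g3, Uqcrb and Atp5e did not pass. There the 3 subunit c genes summed to 241.9 ± 72.2 TPM in PBS and 229.4 ± 12.3 in KLA (SD, n = 2 each). Atp5g3 held 95.95% and 95.59% of these sums. Ndufv3 also passed in CB6F1/J (-0.34), as did Ndufb10 (-0.40), Uqcrfs1, the Rieske protein of complex III (0.37), and Atp5a1, the alpha subunit (0.26), all of which were lost without KLA replicate 1 or PBS replicate 2. The KLA effect in C57BL/6J against BALB/cJ passed in 0 of 70 by edgeR, with 8 at an unadjusted p under 0.05 (3.78% of all genes passed).

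On AMLN diet the subunits rose in C57BL/6J Kupffer cells. Of 69 tested, 55 were higher and 1 lower than in untreated C57BL/6J cells, with a median of 0.81 (32% of all genes higher, 31.3% lower). Leaving out any single library kept the count between 51 and 57 and the median between 0.78 and 0.85. The share of all TPM was 1.11 to 1.17% in 4 diet libraries and 0.711 and 0.753% in 2 controls. Complex I had 29 of 35 higher (median 0.81), complex II 4 of 4 (0.52), complex III 5 of 8 (0.60), complex IV 8 of 10 with 1 lower (0.95) and complex V 9 of 12 (0.90).

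Ndufa1 read 43.9, 54.0, 47.7 and 49.7 TPM on diet and 19.2 and 19.0 TPM in controls (1.57). Ndufa3, also an accessory subunit of complex I, read 121.4, 133.7, 121.8 and 115 against 48.1 and 50.4 (1.54). Uqcr11 read 46.5, 48.5, 51.1 and 48.0 against 17.7 and 21.5 (1.53). Cox4i1, the general COX4 isoform, read 287.8, 299.5, 314 and 303 against 125.7 and 143 (1.39 ± 0.09, adjusted p = 6.7e-06), and Cox8a, the general COX8 isoform, 328, 403, 361 and 336 against 143 and 166 (1.43). For each of these genes every diet library lay above both controls. All 4 genes of complex II passed, Sdhb at 0.86, Sdhc at 0.60, Sdha at 0.45 and Sdhd at 0.34. Cox7a2l was the one lower (-0.36), a call that did not hold without diet replicate 1, 3 or 4 or control replicate 2.

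In BALB/cJ none of 70 subunits passed by edgeR or DESeq2 and none had an unadjusted p under 0.05, with a median of -0.05 (3.35% of all genes higher, 0.134% lower). Ndufa1 read 28.3, 16.9 and 33.02 TPM on diet and 25.3 and 28.6 in controls. Its libraries overlap, as do those of Cox4i1 (196, 116 and 220 against 167 and 175). In A/J none of 69 passed by either tool, 6 had an unadjusted p under 0.05, 62 were positive and the median was 0.54 (0.0504% of all genes higher, 0% lower). Ndufa1 read 39.2, 77.0, 8.75 and 17.3 against 15.6 and 14.0 in A/J. The A/J diet libraries spread widely, since their share of all TPM ran from 0.752 to 1.21%, and the median was 0.88 without A/J control replicate 1.

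The difference between the strains' diet effects was tested directly. The effect was larger in C57BL/6J than in BALB/cJ in 34 of 70 subunits and smaller in none, with a median of 0.84 (11.1% of all genes larger, 22.1% passing in either direction). Sdhb had the lowest p, with 109, 115, 116 and 110 TPM on diet and 67.3 and 77.5 in controls for C57BL/6J, against 72.7, 73.6 and 70.0 on diet and 78.0 and 77.4 in controls for BALB/cJ (1.01 ± 0.15, adjusted p = 0.0024). Ndufb7 had the largest difference (1.84), with 61.1 to 69.6 against 26.4 and 27.5 TPM in C57BL/6J and 17.4 to 54.6 against 43.1 and 53.4 in BALB/cJ. Ndufa2 (1.82), Ndufb10 (1.36, adjusted p = 0.0093) and Ndufb8 (1.28, adjusted p = 0.0080) were further examples from complex I.

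Other measures moved with these results. In BALB/cJ the LSEC marker sum was 579 to 2355 TPM on diet and 160.7 to 161 in controls, the stellate sum 593 to 1162 against 314 to 387, and the erythroid and platelet sum 845 to 977 against 127.5 to 196. In C57BL/6J the same sums were 109.8 to 192 against 199 to 204, 138.6 to 193 against 238 to 263, and 85.0 to 96.4 against 71.9 to 101.9, and hepatocyte markers stood at 141 to 522 against 156 to 428. Neutrophil markers were higher on diet without overlap in each strain, at 14.4 to 28.1 against 1.39 to 4.18 TPM in C57BL/6J, 23.9 to 215 against 1.97 to 7.71 in BALB/cJ and 80.7 to 167 against 1.35 to 2.34 in A/J. Lymphocyte markers were too, at 13.5 to 40.1 against 3.03 to 8.53, 14.4 to 21.3 against 0.274 to 0.806 and 15.6 to 26.1 against 0.536 to 1.66 TPM. The Kupffer marker sum was lower on diet in C57BL/6J, at 9844 to 13130 against 15200 to 15960 TPM. It overlapped its controls in BALB/cJ (12780 to 15100 against 14890 to 16170) and A/J (13050 to 16150 against 14080 to 14870). In A/J hepatocyte markers ranged from 97.6 to 2882 TPM on diet. Without the 2 A/J libraries over 2000 TPM, none passed and the median was 0.55. Transcript length moved as well, with the shortest decile of all genes at 0.40 in C57BL/6J and -0.13 in BALB/cJ. With the length offset, 42 subunits were higher and 3 lower in C57BL/6J, with a median of 0.51 (30.1% of all genes higher, 30.3% lower). The test of the difference between the diet effects was run without this offset and with no library left out. Depth also differed, at 18538566 to 20935346 reads on diet and 9090404 to 10659578 reads in the C57BL/6J controls. The part of other cells, of length and of depth in these differences was not tested.

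Donor-derived Kupffer cells from NSG hosts were set against the untreated cells of each strain. In C57BL/6J 30 of 70 subunits were higher and none lower, with a median of 0.51 (18.7% of all genes higher, 18.4% lower), and in BALB/cJ 9 of 70 were higher and 1 lower, with a median of 0.24 (8.44% and 8.61%). The C57BL/6J count was 14 without control replicate 1 and 16 without control replicate 2, and its median was 0.34 without NSG replicate 2. The BALB/cJ count was 2 and 4 without control replicates 1 and 2 and 6 without NSG replicate 1 or 2, and its median was 0.14 without NSG replicate 3. Both comparisons share their controls with those of LPS and diet. The NSG effect in C57BL/6J against BALB/cJ passed in 0 of 71 subunits by edgeR, with 9 at an unadjusted p under 0.05 (1.64% of all genes passed, median 0.26).

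Cox5a, the complex IV gene that was high in Kupffer cells, passed in both strains, with 384, 421 and 381 TPM in NSG against 255 and 264 in control C57BL/6J cells (0.58 ± 0.10, adjusted p = 0.0015) and 339, 355 and 354.5 against 235 and 265.7 in BALB/cJ (0.47 ± 0.11, adjusted p = 0.013). The groups did not overlap in either strain. Sdhc, which read 119, 135.7 and 136.7 TPM against 85.2 and 81.7 in C57BL/6J, passed there (0.62). Atp5e read 113, 218 and 121 against 61.6 and 69.4 TPM in C57BL/6J (1.19) and was higher by 0.83 in BALB/cJ. Its C57BL/6J call, and those of Ndufa12 (1.18) and Ndufa1 (1.07), did not hold without either control. By complex, C57BL/6J had 13 of 35 higher in complex I, 2 of 4 in II, 1 of 8 in III, 7 of 10 in IV and 7 of 13 in V.

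Cox7c was the one that fell in BALB/cJ, from 12.98 and 9.72 TPM to 2.36, 1.41 and 2.39 (-2.45 ± 0.44, adjusted p = 0.0031, lost without control replicate 1). BALB/cJ and C57BL/6J NSG cells differed in 2 of 70 subunits (6.09% and 5.43% of all genes). These were Ndufa12 (1.31), at 41.6, 47.4 and 47.0 against 16.4, 23.2 and 16.8 TPM, and Atp5g1 (-4.65), so both genes also differed between cells grown in the same host strain. Lymphocyte markers were 62.5 to 363 TPM in the NSG libraries of the parental strains and 0.274 to 8.53 in controls. In the shortest decile of genes the C57BL/6J median was 0.24. With the length offset 23 subunits were higher and none lower, with a median of 0.33 (18.9% of all genes higher, 18.8% lower). By the study's methods the gate for donor cells in BALB/cJ grafts was CD146-, F4/80+, CD11b+ and positive for the donor's MHC type. The part of the lymphocyte markers and of length was not tested.

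**Figure D5:**
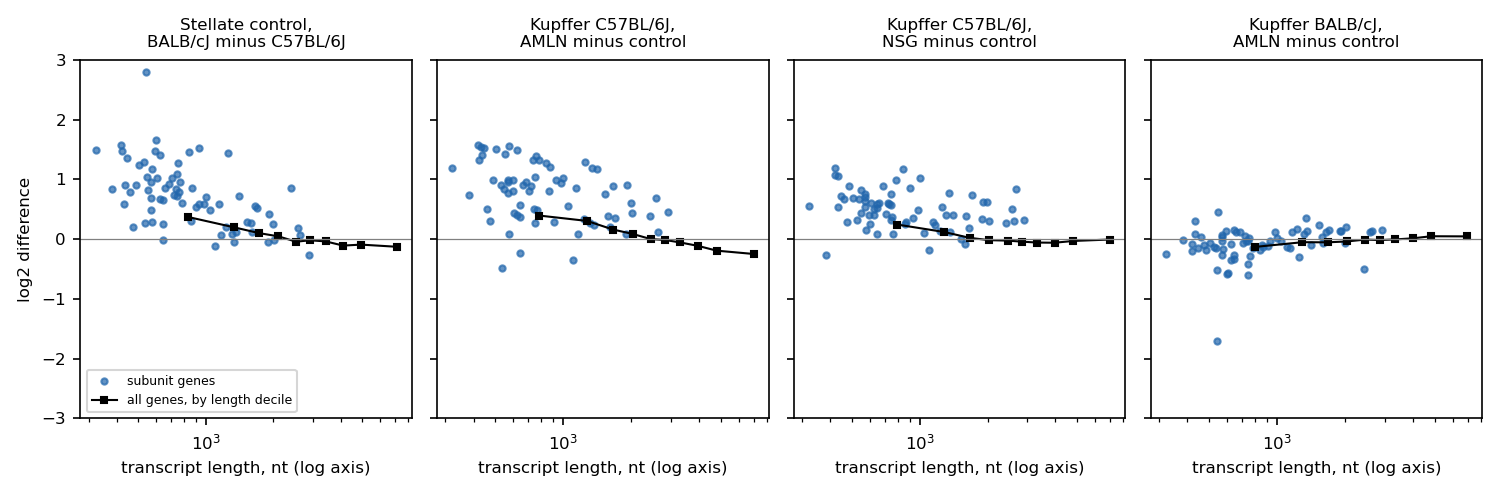
Log2 difference of each subunit (blue) against transcript length in nt (log axis), with the median of all genes by length decile (black), in 4 comparisons. In the first 3 panels the subunits lie on both sides of the all-gene line, which rises towards short transcripts to 0.37, 0.40 and 0.24, and their medians are 0.71, 0.81 and 0.51, and for BALB/cJ on AMLN diet they scatter around 0.

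Related mitochondrial lists were counted beside the subunits. The mitochondrial ribosome (78 genes), which makes the subunits encoded in mitochondrial DNA, had 42 of 61 higher and 1 lower in C57BL/6J on AMLN diet (median 0.48, with 32% of all genes higher and 31.3% lower), 40 of 63 higher and 2 lower in BALB/cJ against C57BL/6J stellate cells (0.58, with 24.4% and 23.6%), and 69 of 72 lower in Kupffer cells than in hepatocytes (median -2.001, with 43.2% of all genes lower). Assembly factors and electron carriers (55) had medians of 0.44, 0.36 and -1.75 in these comparisons, with 15 of 33 and 18 of 36 higher and 40 of 44 lower. Enzymes of the TCA cycle (20), which supply the electrons, had 0.20, 0.08 and -1.61. Glycolysis genes (21) had 11 of 14 higher on the diet (0.62), 0.00 between the stellate cells and -0.59 against hepatocytes. In the stellate comparison the lists thus ran from 0.71 for the subunits to 0.00 for glycolysis.

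After LPS, the mitochondrial ribosome stood at 0.10, -0.05 and 0.07 in BALB/cJ, C57BL/6J and CB6F1/J, assembly factors at -0.08, -0.08 and 0.00, and the TCA cycle at -0.16, -0.32 and -0.18. Of the TCA cycle genes 6 of 20, 7 of 19 and 9 of 20 were lower, near the 29.4%, 30.4% and 41.8% of all genes, and 2, 1 and 5 were higher (29.4%, 28.6% and 39.4%). Glycolysis genes had medians of 0.51, 0.18 and 0.78. Among 6 mitochondrial genes linked to LPS, Acod1, which makes itaconate from a TCA cycle intermediate, rose by 9.69, 8.16 and 9.11, Sod2, the mitochondrial superoxide dismutase, by 4.48, 4.22 and 4.85, and the uncoupling protein gene Ucp2 fell by 0.70, 1.00 and 0.96. Among 13 regulators of mitochondrial biogenesis, Esrra, the nuclear receptor whose motif was searched above, rose with KLA in BMDMs by 0.99 (A/J), 0.95 (BALB/cJ), 1.52 (C57BL/6J) and 1.09 (CB6F1/J). It fell with LPS in C57BL/6J (by 0.88) and CB6F1/J (by 0.48) Kupffer cells and did not pass in BALB/cJ (-0.27).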

How the data were processed

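For poly(A)-selected, dUTP-marked RNA-seq libraries, the authors used STAR on strain genomes built on mm10 and shifted positions back, and the deposited tables hold raw read counts per gene over exons and TPM values, both from HOMER. The authors ran DESeq2 on their counts. Versions and the strand setting of counting are not given in the sources used here. Values of the parental BMDM libraries were estimated counts, rounded here. The deposited CB6F1/J values were estimated counts, the mean of perfect reads over both parental genomes (rounded here), allele counts the reads that span variants, and CB6F1/J NSG cells had TPM from all reads, so they entered allele tests and levels only. Their NSG group was taken from the titles.

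Counts were fitted pairwise with edgeR 4.0.16 (R 4.3.3, quasi-likelihood, robust, TMM). Genes passed the edgeR filter on low counts and had a mean above 8 TPM in at least 1 group, and p-values were adjusted over all genes tested (Benjamini-Hochberg, threshold 0.05). Alleles were fitted with the library as a block at a mean of 10 reads or more. Cell types were compared over untreated parental libraries with strain as a covariate. Scripts were tested on simulated data. No pair of libraries among 88 held identical values. Alternatives were DESeq2 1.42.0, its size factors (RLE), no TPM filter, a replicate block and each library left out. The log2(TPM + 1) scale, on which a fold change is understated for low genes and which gave no test, an offset for library and decile of transcript length (23057 of 23608 genes with a length), leaving out libraries by marker sums, and the tests of differences between strain, diet, NSG or KLA effects were added after seeing the data. Genes were named where they passed with 1 of the 4 largest differences per direction and comparison, were isoform partners, encoded complex II, or were the highest or lowest of a complex. Atp5d, Atp5o, Atp5j, Ndufa5, Ndufa6, Ndufa13, Ndufb7, Ndufb8 and Ndufb10 were also named from the tests of differences, after their values were seen, and the genes of related lists likewise. The members and lists were chosen with earlier results of these data known. Values of 1 member are not reported here. Of the 83 members, 81 were matched to RefSeq by symbol and 2 by synonym.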

Additional observations from a re-analysis of the deposited data

Results flagged for a closer look

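Of 171 sets of values of 4 or 5 libraries, those of genes under 1 TPM in every library were not tested. Among the rest, 9 had 1 library farther from the others than Dixon's 95% value, where chance gives about 1 in 20. These were Atp5g2 in A/J Kupffer cells on AMLN diet (38.7 TPM), Sdhb in CB6F1/J Kupffer cells after LPS (47.8 TPM) and in their controls (83.9 TPM), Ndufa4l2 (2.48 TPM), Cox6b2 (5.33 TPM) and Sdhd (66.5 TPM) in BALB/cJ LSECs, Ndufa12 in C57BL/6J LSECs (12.6 TPM), Atp5g2 in A/J stellate cells (27.8 TPM) and the share of all TPM held by complex V in BALB/cJ stellate cells (0.2078%).

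Effects that differed between groups by a test of the difference were those of AMLN diet in C57BL/6J against BALB/cJ Kupffer cells (34 of 70 subunits, with 22.1% of all genes passing), of BALB/cJ against C57BL/6J in stellate cells against LSECs (7 of 71, with 12.5%), and of the same strains in stellate against Kupffer cells (13 of 71, with 15%). The shares in both strain comparisons were near those over all genes when both directions were counted. By direction, 7 and 12 of 71 subunits were larger in stellate cells, where 5.93% and 6.57% of all genes were larger.

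CB6F1/J NSG cells, whose TPM came from another selection of reads, held 1.582% of all TPM in the subunits, with 1.52 to 1.63% in 3 libraries against a mean of 0.943% in CB6F1/J controls. No gene-level test was run on them. Their erythroid and platelet markers summed to 62.0 to 4002 TPM.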

How the results depend on the processing

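Medians near 0, such as 0.04 for Kupffer minus LSEC, changed sign under some settings. Of the larger ones, those of LPS in all 3 strains, of KLA in A/J and BALB/cJ, and of the LPS effect in BALB/cJ minus that in C57BL/6J changed sign, and did so on the log2 TPM scale. Without the TPM filter, the subunit median was 0.10 for A/J minus BALB/cJ in PBS BMDMs, and for KLA 0.21 in A/J and 0.37 in C57BL/6J BMDMs. With the replicate block it was 0.22 for LPS in CB6F1/J. With single libraries left out, medians ranged from -0.018 to 0.13 (A/J minus BALB/cJ), 0.14 to 0.27 (A/J minus C57BL/6J) and 0.090 to 0.26 (BALB/cJ minus C57BL/6J) in PBS BMDMs, from -0.32 to -0.27 for A/J minus BALB/cJ hepatocytes, 0.10 to 0.19 for A/J KLA, 0.24 to 0.37 for C57BL/6J KLA and 0.34 to 0.55 for C57BL/6J NSG cells.

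On the log2 TPM scale, medians were 0.13 (A/J minus BALB/cJ) and 0.29 (A/J minus C57BL/6J) in PBS BMDMs, 0.65 for BALB/cJ minus C57BL/6J stellate cells, -0.40 for A/J minus BALB/cJ and 0.38 for BALB/cJ minus C57BL/6J hepatocytes, -0.25, -1.35 and -0.96 for Kupffer cells minus LSECs, hepatocytes and BMDMs, -0.26, -0.21 and -0.37 for LPS in BALB/cJ, C57BL/6J and CB6F1/J, for KLA -0.12 (A/J), -0.086 (BALB/cJ), 0.072 (C57BL/6J) and -0.23 (CB6F1/J), 0.57 for C57BL/6J on AMLN diet and 0.015 for the LPS effect in BALB/cJ minus that in C57BL/6J. With the length offset, they were 0.12 (Kupffer) and 0.39 (stellate) for BALB/cJ minus C57BL/6J, 0.13 in PBS BMDMs for both A/J and BALB/cJ minus C57BL/6J, 0.36 for A/J minus C57BL/6J stellate cells, -0.16 for A/J minus BALB/cJ and 0.12 for BALB/cJ minus C57BL/6J hepatocytes, -1.82 and -0.50 for Kupffer cells minus hepatocytes and BMDMs, 0.11 for CB6F1/J LPS, 0.20 for C57BL/6J KLA, 0.51 for C57BL/6J AMLN and 0.33 for C57BL/6J NSG. The causes were not tested.

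Counts of passing subunits moved by over 1.5 times as follows. With the replicate block, A/J minus BALB/cJ went from 3 to 5 in Kupffer cells and from 12 to 7 in PBS BMDMs, BALB/cJ minus C57BL/6J from 14 to 23 in LSECs and from 17 to 33 in hepatocytes, A/J minus C57BL/6J hepatocytes from 3 to 23, Kupffer minus stellate from 30 to 20, C57BL/6J LPS from 20 to 13, and AMLN from 0 to 28 in A/J and 0 to 2 in BALB/cJ. Replicate numbers are not said to pair samples. No comparison with 3 or more pairs had every correlation of same-numbered libraries over 0.1. Single correlations varied, from -0.547 to 0.677 for A/J minus BALB/cJ in LSECs. Whether same-numbered libraries shared a batch was not tested. With DESeq2, A/J minus C57BL/6J went from 10 to 16 in LSECs and 3 to 5 in hepatocytes, and without the TPM filter A/J minus BALB/cJ went from 3 to 6 in Kupffer cells. For alleles, the counts went from 9 to 5 (untreated), 2 to 3 (NSG) and 5 to 2 (KLA) with no replicate block, from 5 to 2 with RLE (KLA), and from 2 to 4 in NSG and PBS at 50 reads or more. Leaving out a library was not possible for the BMDM alleles, with 2 libraries each. Where it left 1 library in a group, that library was assumed to vary like the others.

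Of 716 repeats of named subunits under other settings, 677 kept their side of the threshold, 39 no longer passed and 0 reversed, and of 1191 with a library left out, 1029, 162 and 0. The log2 TPM scale, the length offset and the libraries left out by marker sums were not among these repeats. Depth limits Atp5g1 in BALB/cJ and Atp5g2 outside A/J to a few reads per library.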
